A study of Mus musculus with 6 samples.

Results

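Desmosome genes were followed in Py2T cells, a line from a mammary tumour of a mouse, through 8 genes given by name: *Dsg2*, *Dsc2*, *Jup*, *Dsp*, *Pkp1*, *Pkp2*, *Pkp3* and *Pkp4*. The 8 are named as parts of the junction, were matched by symbol, and all have a row among the 24454 genes of the deposited table. RNA was sequenced from cells labelled PBS that had received 0 µM H2O2, from the C40 line that had received 40 µM H2O2 each day for 4 months, and from the I60 line that had received 60 µM H2O2 each day for 4 months, with 2 libraries per group. The treatment protocol in the labels calls the PBS cells untreated. Each concentration is represented by 1 line, so a difference that a line acquired without H2O2 cannot be told apart from an effect of H2O2. The labels do not say whether the 2 libraries of a group came from cells treated apart, so p-values measure the spread between these libraries, which may be technical.

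A desmosome is a button-like junction that ties the keratin filaments of neighbouring epithelial cells together, and it gives skin, heart and glandular epithelium their resistance to pulling. Desmogleins and desmocollins are cadherins that cross the membrane and bind their partners on the next cell. Inside the cell their tails hold plakoglobin and plakophilins, which in turn hold desmoplakin, and desmoplakin grips the keratins. Epithelial cells that turn mesenchymal commonly take this junction apart.

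Libraries held 48113692 to 60260520 reads assigned to genes, so that 1 read equals 0.0166 to 0.0208 CPM (reads of a gene scaled to the library's total). The C40 replicates stood further apart from each other than those of I60 or PBS, with 1022 genes differing over 2-fold between replicates, against 217 in I60 and 223 in PBS. Of 6 epithelial markers, the keratin genes *Krt8* and *Krt18* were abundant in every library (1059 to 1707 CPM), while *Cdh1*, *Epcam*, *Cldn3* and *Cldn7* were called lower in both lines. *Cdh1* (E-cadherin) had 529 and 537 CPM in PBS, 59.7 and 87.8 CPM in C40, and 0.187 and 0.129 CPM in I60. *Epcam* had 307 and 410 CPM in PBS, 41.9 and 52.45 CPM in C40, and 0.730 and 1.07 CPM in I60. In I60, *Cldn3* had 0 and 0.0184 CPM, and *Cldn7* had 0 CPM in both libraries. Markers of immune cells (5 genes, summed level 0.0184 to 0.543 CPM over the libraries), endothelium (4 genes, 0.0664 to 0.935 CPM) and adipocytes (3 genes, 0 to 0.0562 CPM) were near 0. Of 8 fibroblast markers, *Lum*, *Fap* and *Thy1* had 0 reads in all libraries, while the summed level of the list was 7.16 and 6.22 CPM in PBS, 628 and 161 CPM in C40, and 433 and 382 CPM in I60. Most of it was *Pdgfra* in PBS and *Col3a1* in C40 and I60 (575 and 122 CPM in C40, 418 and 357 CPM in I60). The summed level of the 6 epithelial markers, most of it *Krt8* and *Krt18*, was 3759 and 4357 CPM in PBS, 2995 and 2673 CPM in C40, and 3151 and 3088 CPM in I60. The part of such marker shifts in the results was not tested. Of 4 muscle markers, *Tnnt2* was the exception to low levels (22.9 to 102 CPM). In bulk RNA, fewer cells that express a gene and less of its RNA per cell cannot be told apart.

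RNA of the membrane cadherins was almost lost, and RNA of the plaque genes was lower to differing degrees, except *Pkp2* in I60. Desmoplakin parted the lines: its mean level was 17.9% of PBS in C40 and 79.4% of PBS in I60. Limma on log2(CPM + 0.5), adjusted over 11524 genes, called 5 of the 8 genes lower in C40 than in PBS, where 9.02% of all genes tested were called lower. It called 6 of the 8 lower in I60 than in PBS, where 13.1% of all genes were called lower and 27.1% were called in either direction. None (0) was called higher in either line, against 11.2% of all genes in C40 and 13.9% in I60. At an unadjusted p below 0.05, all 8 were lower in C40, where 35.4% of all genes passed in either direction, and in I60 a total of 7 passed, of which *Pkp2* was higher, where 39.4% of all genes passed. By edgeR and by DESeq2 too, 0 were called higher. *Dsg2* and *Dsc2* reached the filter of 1 CPM through the PBS libraries alone, so they could only be tested because they were high there. Of the 6 others, which held at least 1 CPM in all libraries, 3 fell in C40 and 4 fell in I60. Without PBS replicate 1 or 2, which removes *Dsg2* and *Dsc2* from the genes tested, 3 of the desmosome genes were called lower in C40 and 2 in I60. Both comparisons use the same PBS libraries, and the 8 genes were chosen with earlier results of these data known.

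**Figure D1:**
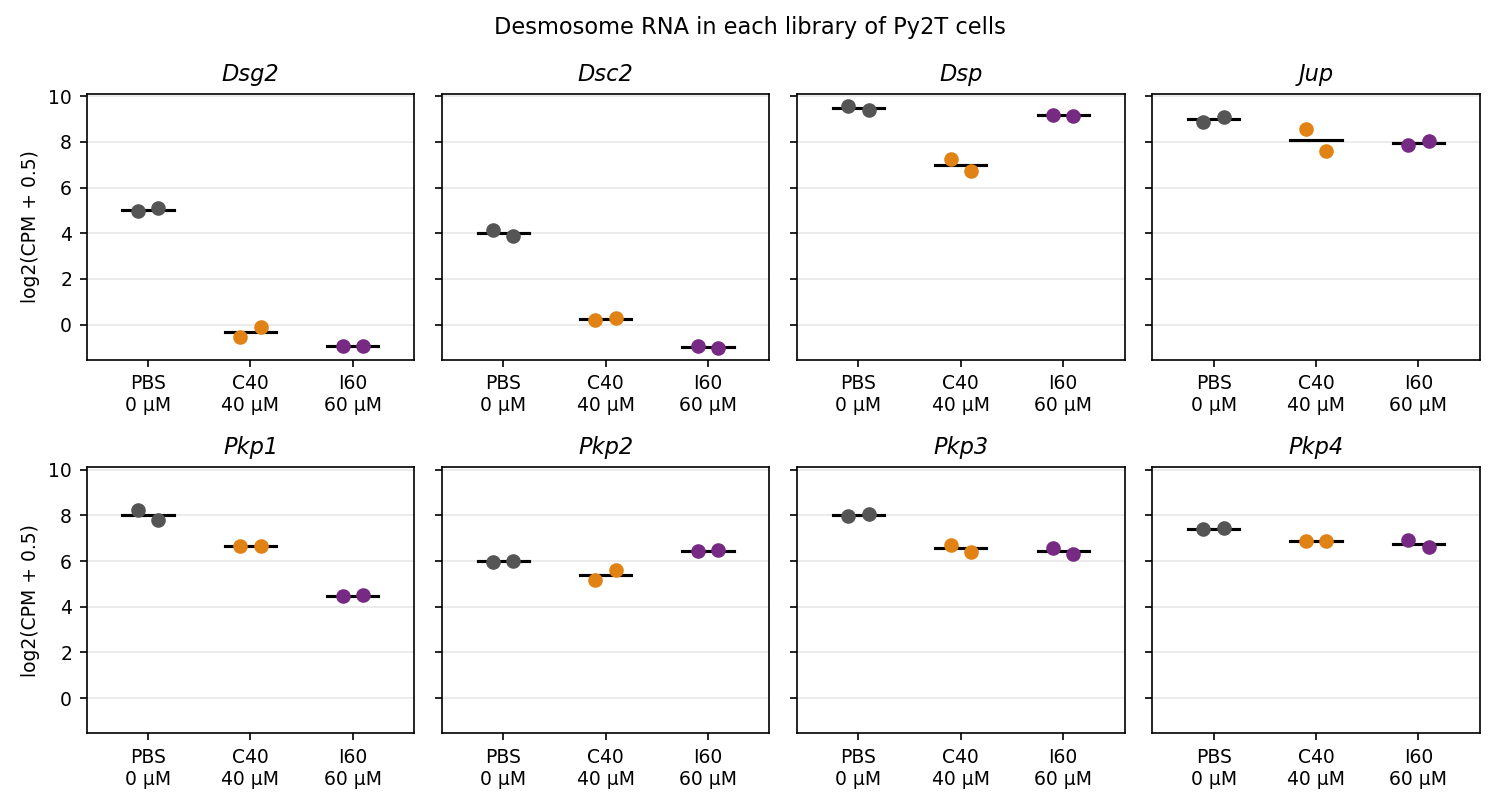
Level of each desmosome gene in each library as log2(CPM + 0.5), by H2O2 concentration (points are libraries, bars are means of the 2 libraries). *Dsg2* and *Dsc2* sit at the bottom of the scale in I60. *Dsp* is lowest in C40 and a little below PBS in I60, *Pkp1* is lower at each step, and *Pkp2* is highest in I60.

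The desmosomal cadherins showed the steepest loss. *Dsg2* encodes desmoglein 2, the desmoglein of simple epithelia, and lies on mm10 chromosome 18 from 20558074 to 20604526. Its level was 30.9 and 34.0 CPM in PBS, 0.187 and 0.423 CPM in C40, and 0.0187 and 0.0184 CPM in I60. The I60 values are 1 read in each library, against 1764 and 2046 reads in the PBS libraries. The groups did not overlap. In C40 the mean level of *Dsg2* was 0.941% of PBS, a fall of 41.3-fold on the log2(CPM + 0.5) scale (log2 fold change -5.37, SE 0.25, limma adjusted p = 5.07e-05). From the pooled reads, PBS cells held 1747 times the level of I60 cells (95% interval of the read ratio 483 to 14430, counting error only), and limma's adjusted p for I60 was 1.24e-05.

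*Dsc2* encodes desmocollin 2, the partner cadherin, and lies on chromosome 18 from 20030633 to 20059554. Its level was 17.1 and 14.1 CPM in PBS, 0.644 and 0.736 CPM in C40, and 0.0187 and 0 CPM in I60. In C40 it stood at 4.42% of the PBS mean, and in I60 it had 1 read in both libraries together. The fall in C40 was 13.5-fold (log2 fold change -3.75, SE 0.23, limma adjusted p = 0.000142). PBS cells held 1677 times the I60 level from the pooled reads (95% interval 301 to 66260), with adjusted p = 1.74e-05.

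Between the lines, C40 kept more of both cadherins than I60, though few reads carry this. *Dsc2* had 1 read in I60 and 71 in C40, and C40 held 74.6 times the I60 level (95% interval 13.0 to 2988). Limma called *Dsc2* lower in I60 than in C40 (log2 fold change -1.22, adjusted p = 0.0192), a call lost with a pseudocount of 1 CPM (0.064) and without I60 replicate 1 or 2 (0.147 and 0.153). Without a PBS replicate *Dsc2* and *Dsg2* no longer reached the filter. *Dsg2* had 2 reads in I60 and 32 in C40, a C40 level 16.8 times that of I60 (95% interval 4.29 to 145). Limma did not call it (adjusted p = 0.208), but it passed with a pseudocount of 0.1 CPM (0.0352), by edgeR (0.012) and by DESeq2 (0.00266).

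No other desmosomal cadherin was called higher in either line. In the order of their positions on chromosome 18 the genes run *Dsc3*, *Dsc2*, *Dsc1*, *Dsg1c*, *Dsg1a*, *Dsg1b*, *Dsg4*, *Dsg3* and *Dsg2*, from 19960930 to 20604526. *Dsc3* and *Dsg4* had 0 reads in all libraries, and *Dsc1*, *Dsg1a*, *Dsg1b* and *Dsg1c* had at most 0.4025 CPM. *Dsg3*, a desmoglein of stratified epithelia and the direct neighbour of *Dsg2*, was the only other one tested. It had 11.8 and 7.75 CPM in PBS, 0.540 and 0.294 CPM in C40, and 0.0936 and 0.0553 CPM in I60. It fell 11.1-fold in C40 and 17.5-fold in I60 on the log2(CPM + 0.5) scale (limma adjusted p = 0.000372 and 8.57e-05). Like *Dsg2* and *Dsc2*, it reached the filter through the PBS libraries alone.

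*Dsp* encodes desmoplakin, the plakin that fastens the plaque to keratin, and lies on chromosome 13 from 38151294 to 38198577. Its level was 767 and 671 CPM in PBS, 151 and 106 CPM in C40, and 582 and 560 CPM in I60. The C40 libraries were low, while the I60 libraries lay between C40 and PBS and near PBS, with no overlap among the groups. Mean levels were 17.9% of PBS in C40 and 79.4% of PBS in I60. *Dsp* fell 5.65-fold in C40 (log2 fold change -2.50, SE 0.20, limma adjusted p = 0.000343). In I60 it did not pass (log2 fold change -0.33, 95% interval -0.81 to 0.15, adjusted p = 0.275). The difference between the lines was itself tested: *Dsp* was 4.49-fold higher in I60 than in C40 (log2 fold change 2.17, 95% interval 1.69 to 2.65, adjusted p = 0.000992). Both calls held under each of 17 alternatives, the highest adjusted p being 0.00795 for C40 against PBS and 0.0242 for I60 against C40. GENCODE places an exon of *Gm10129* opposite 499 bases of *Dsp* exons, and an exon of *Gm16090* opposite 330 bases of *Dsg2* exons. Without the strand setting, reads of either strand there cannot be told apart.

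*Jup* encodes plakoglobin, the armadillo protein that bridges the cadherin tails and desmoplakin, and a close relative of beta-catenin. It lies on chromosome 11 from 100368856 to 100397839. Its level was 464 and 547 CPM in PBS, 381 and 193 CPM in C40, and 234 and 260 CPM in I60. The C40 libraries differed from each other about as much as C40 differed from PBS. In C40 *Jup* did not pass (log2 fold change -0.89, SE 0.31, limma adjusted p = 0.0842), but did without C40 replicate 1 (-1.38, 0.00172). In I60 it was 2.04-fold lower (log2 fold change -1.03, adjusted p = 0.0473). This call was lost without any of the PBS or I60 replicates (0.143 to 0.214) and with no filter on low values (0.0972). I60 and C40 overlapped (log2 fold change -0.13, 95% interval -0.86 to 0.59).

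Desmoplakin and plakoglobin, the plaque genes that differed between the lines (*Dsp*) and that overlapped between them (*Jup*), are given with the stretch around a transcription start from RefSeq (GRCm38.p6, the same build as mm10). The *Dsp* window is chr13:38151044-38151343 on the plus strand and the *Jup* window is chr11:100397741-100398040 on the minus strand, each 250 bases before the start to 50 after it, written 5′ to 3′. Capitals mark the E-box CAGGTG or CACCTG, 1 motif read on both strands, to which factors such as ZEB1, ZEB2 and Snail can bind.
Dsp: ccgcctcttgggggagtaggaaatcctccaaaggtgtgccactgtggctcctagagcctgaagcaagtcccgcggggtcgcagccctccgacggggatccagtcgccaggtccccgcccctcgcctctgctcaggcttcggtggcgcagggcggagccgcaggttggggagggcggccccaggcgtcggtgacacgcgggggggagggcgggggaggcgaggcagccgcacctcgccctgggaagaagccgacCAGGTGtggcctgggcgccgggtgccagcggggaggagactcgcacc
Jup: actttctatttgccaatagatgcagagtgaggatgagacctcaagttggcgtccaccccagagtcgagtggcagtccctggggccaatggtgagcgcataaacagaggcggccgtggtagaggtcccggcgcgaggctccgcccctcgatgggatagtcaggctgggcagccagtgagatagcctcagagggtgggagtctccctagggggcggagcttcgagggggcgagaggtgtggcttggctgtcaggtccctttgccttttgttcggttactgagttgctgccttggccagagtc
The *Dsp* window held 1 E-box, beginning 3 bases after the start, and the *Jup* window held 0. Of all 32851 promoter windows in the table, 20.2% held at least 1. *Pkp4* had 2 windows, with 1 E-box in the second, 47 bases before the start. The GRHL motif AACCGGTT, which reads the same on both strands, was in none of these 4 windows (0) and in 0.146% of all. With a motif that rare, 4 windows cannot show whether it is missing more often here. No window of *Dsg2*, *Dsc2*, *Pkp1*, *Pkp2* or *Pkp3* was searched for any of the motifs. The GC box GGGCGG or CCGCCC occurred 4 times in the *Dsp* window and 2 times in the *Jup* window, and 35.7% of all windows held it. A match in the letters does not show that a factor binds there.

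The plakophilins are armadillo proteins that link desmoplakin to the cadherins and widen the plaque. *Pkp1* encodes plakophilin 1, found mostly in stratified epithelia, and lies on chromosome 1 from 135871394 to 135919207. Its level was 303 and 224 CPM in PBS, 99.6 and 101 CPM in C40, and 21.7 and 22.2 CPM in I60. The groups were apart, each lower than the one before. *Pkp1* fell 2.597-fold in C40 (log2 fold change -1.38, SE 0.19, limma adjusted p = 0.00302) and 11.6-fold in I60 (-3.54, SE 0.19, adjusted p = 2.77e-05). It was also 4.48-fold lower in I60 than in C40 (adjusted p = 0.000807). All 3 calls held under each of 17 alternatives.

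*Pkp2* encodes plakophilin 2, the broadly expressed form of simple epithelia and heart, and lies on chromosome 16 from 16213345 to 16272712. Its level was 61.4 and 64.4 CPM in PBS, 35.8 and 48.3 CPM in C40, and 85.7 and 89.3 CPM in I60. The C40 libraries were below PBS and the I60 libraries above it, without overlap. Neither comparison with PBS passed: the log2 fold change was -0.59 in C40 (95% interval -1.06 to -0.13, limma adjusted p = 0.0763) and 0.47 in I60 (0.01 to 0.94, adjusted p = 0.122). In C40 it was called without C40 replicate 2 (-0.80, 0.0228). In I60 it was called when the libraries of I60 and PBS were fitted alone (0.044) and without C40 replicate 1 or 2 (0.0465 and 0.0477). The lines differed from each other, with *Pkp2* 2.09-fold higher in I60 than in C40 (log2 fold change 1.06, adjusted p = 0.0172). That call was lost without I60 replicate 1 or 2 (0.128 and 0.148), and without PBS replicate 1 or 2 where the genes tested were held fixed (0.057 and 0.0568).

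*Pkp3* encodes plakophilin 3, present in most epithelial desmosomes, and lies on chromosome 7 from 141078229 to 141090511. Its level was 250 and 262 CPM in PBS, 105 and 84.4 CPM in C40, and 95.8 and 78.0 CPM in I60. Both lines were lower than PBS and overlapped each other. *Pkp3* fell 2.72-fold in C40 (log2 fold change -1.44, SE 0.19, limma adjusted p = 0.00214) and 2.95-fold in I60 (-1.56, SE 0.19, adjusted p = 0.001), calls that held under each of 17 alternatives. The difference between I60 and C40 was -0.12 (95% interval -0.56 to 0.32).

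*Pkp4* encodes plakophilin 4, also named p0071, a relative of p120 catenin that is found at adherens junctions as well as desmosomes. It lies on chromosome 2 from 59160850 to 59355205. Its level was 168 and 172 CPM in PBS, 116 and 118 CPM in C40, and 119 and 96.8 CPM in I60. It was lower in every treated library, but by little. In C40 it did not pass (log2 fold change -0.54, SE 0.17, limma adjusted p = 0.0618), though DESeq2 called it (0.0486). In I60 it fell 1.58-fold (log2 fold change -0.66, adjusted p = 0.0251), a call lost without any of the PBS or I60 replicates (0.0502 to 0.157). The difference between I60 and C40 was -0.13 (95% interval -0.52 to 0.27).

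**Figure D2:**
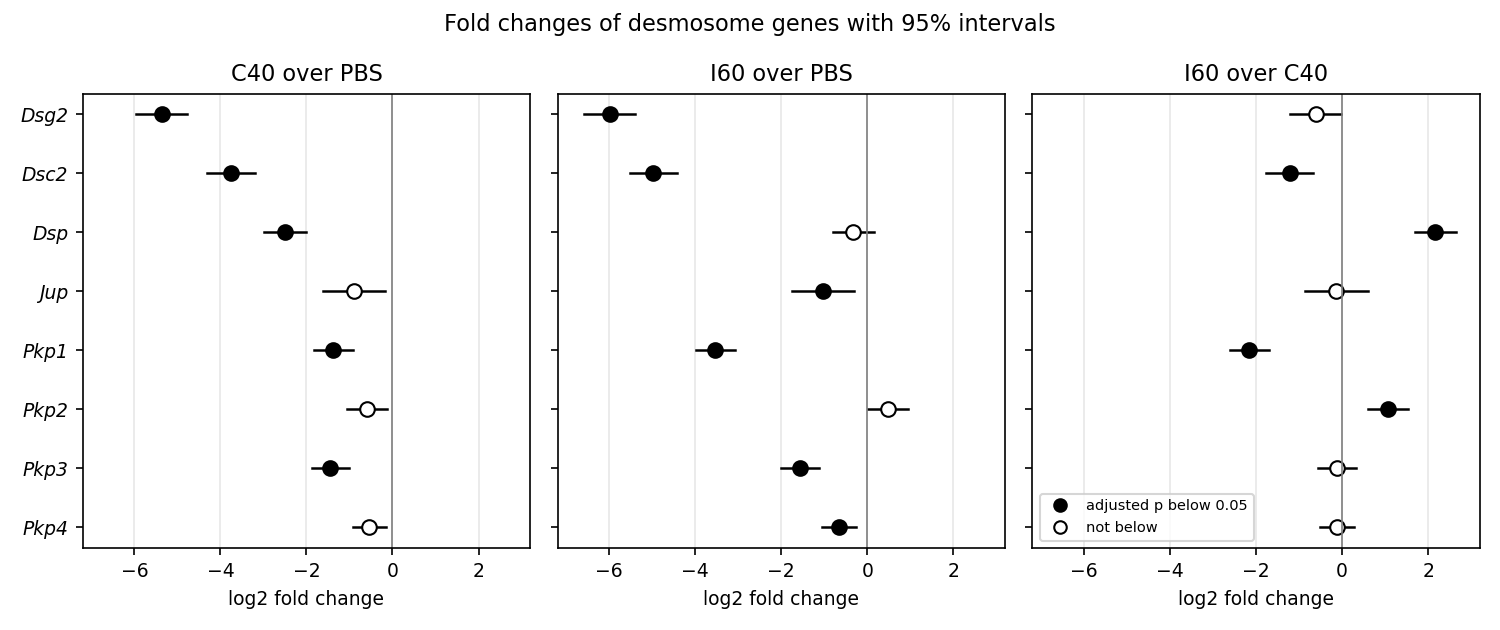
Log2 fold changes of the 8 genes with limma's 95% intervals for C40 over PBS, I60 over PBS and I60 over C40 (filled points have an adjusted p below 0.05). *Dsp* and *Pkp2* lie right of 0 and *Dsc2* and *Pkp1* left of 0 in I60 over C40. The values of *Dsg2* and *Dsc2* in I60 rest on 1 or 2 reads and depend on the pseudocount.

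The lines were also compared directly, since both received H2O2 but at different concentrations. Of the 8 genes, 2 were called lower in I60 than in C40 (*Dsc2* and *Pkp1*), where 5.73% of all genes were, and 2 were called higher (*Dsp* and *Pkp2*), where 3.51% were. Libraries of I60 and PBS did not overlap for all 8 genes, 7 of them lower and *Pkp2* higher, where 35.2% of all genes had lower and 35.5% had higher libraries without overlap. In C40 all 8 lay below PBS without overlap, where 31.8% of all genes did and 62.7% were apart in either direction. *Dsg2* and *Dsc2* reached the filter of 1 CPM through the PBS libraries alone and were below 1 CPM in both lines. The 6 others, with at least 1 CPM in all libraries, were all apart from PBS in each line. Libraries of I60 and C40 did not overlap for 5 of the 8, with 3 lower in I60 (*Dsg2*, *Dsc2* and *Pkp1*; 24.4% of all genes) and 2 higher (*Dsp* and *Pkp2*; 24.4% of all genes), where 48.8% of all genes were apart in either direction.

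Set per kilobase of GENCODE exons, which allows levels of different genes to be compared, the order of the plaque genes differed between the groups. In PBS *Jup* (78.5 ± 9.17 CPM per kb; SD, n = 2), *Dsp* (74.4 ± 7.01) and *Pkp3* (70.9 ± 2.31) led within their spread of each other. In C40 *Jup* (44.6 ± 20.6 CPM per kb) and *Pkp3* (26.1 ± 3.95) led, and *Dsp* had rank 5 of the 8 at 13.3 ± 3.27. In I60 *Dsp* led at 59.1 ± 1.57 CPM per kb, above *Jup* at 38.4 ± 2.89. The cadherins were far below the plaque genes already in PBS, at 3.92 ± 0.264 CPM per kb for *Dsg2* and 2.96 ± 0.394 for *Dsc2*. *Dsp* made up 24.1% and 21.7% of the summed level per kb of the 8 genes in PBS, 10.4% and 9.63% in C40, and 36.7% in each I60 library.

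Among the 3 classical plakophilins, the mixture differed as well as the amount. *Pkp1* held 42.8% and 34.55% of their summed level per kb in PBS, 35.8% and 38.2% in C40, and 9.23% and 10.4% in I60. *Pkp2* held 8.12% and 9.31% in PBS, 12.05% and 17.2% in C40, and 34.15% and 39.1% in I60. *Pkp3* held between 44.55% and 56.6% in every library. Their sum was 141 and 129 CPM per kb in PBS, 55.4 and 52.4 in C40, and 46.8 and 42.7 in I60. These shares are given without a test and depend on the same exon lengths.

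**Figure D3:**
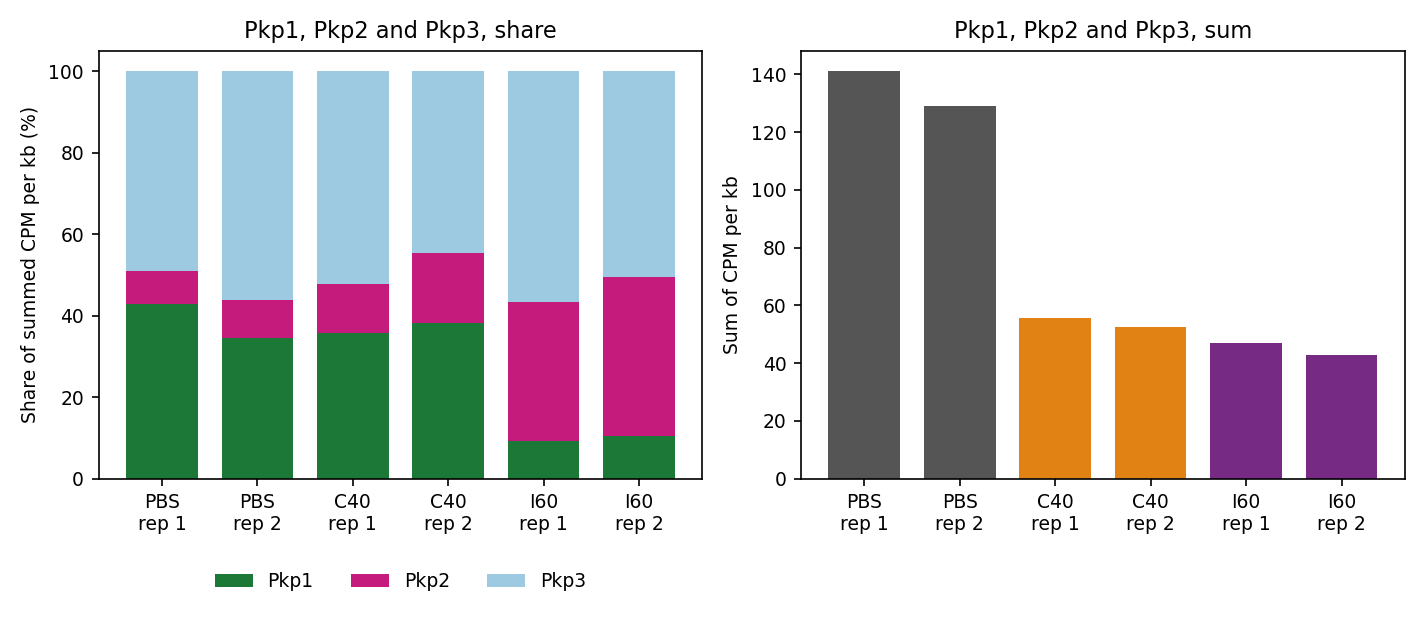
Share of each of *Pkp1*, *Pkp2* and *Pkp3* in their summed CPM per kilobase of exon (left, in %) and that sum (right), in each library. *Pkp2* holds 34.15% and 39.1% of the sum in I60, where *Pkp1* holds 9.23% and 10.4%, while the sums of C40 and I60 lie below those of PBS.

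A further 53 genes in 8 lists were set beside the junction genes, of which 41 were tested. In C40, 15 of the 41 fell and 6 rose, and in I60, 18 fell and 5 rose. Of all genes tested, 9.02% were called lower and 11.2% higher in C40, and 13.1% lower and 13.9% higher in I60. These shares also belong beside the counts of each list below. The lists were chosen with earlier results of these data known. The medians over the 41 were -0.40 and -0.74. The median of all 11524 genes was -0.02 in C40 and -0.002 in I60 on the log2 scale.

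Other proteins of the desmosome and the envelope it anchors were mostly lower. Of 7 genes, 6 fell in C40 and 5 fell in I60, 0 rose, and the medians were -1.86 and -1.52. *Evpl* (envoplakin, a plakin) had 138 and 102 CPM in PBS, 16.1 and 4.51 CPM in C40, and 1.01 and 1.18 CPM in I60, falls of 13.1-fold and 74.9-fold (limma adjusted p = 0.00325 and 0.000204). *Kazn* (kazrin, a partner of periplakin) fell 12.5-fold in C40 and 7.19-fold in I60 (0.000307 and 0.000464). *Pof1b*, a protein of epithelial junctions, fell in C40 to a mean of 5.9% of PBS (log2 fold change -1.86 on the log2(CPM + 0.5) scale, limma adjusted p = 0.00979). In I60 it had 2 reads, and PBS cells held 97.7 times the level from the pooled reads (95% interval 26.7 to 812, limma adjusted p = 0.00435). It reached the filter of 1 CPM through the PBS libraries alone.

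*Ppl* (periplakin) and *Perp*, a membrane protein of desmosomes that p53 and p63 can induce, were lowest in C40. *Ppl* had 406 and 363 CPM in PBS, 137 and 43.8 CPM in C40, and 188 and 179 CPM in I60. It fell 4.92-fold in C40 (limma adjusted p = 0.0143) and missed the threshold when either PBS library was dropped (0.0675 to 0.115). It did not pass in I60 (0.137), but did when the I60 and PBS libraries were fitted alone (0.000859) and without C40 replicate 1 or 2 (0.000933 and 0.000828). *Perp* had 383 and 331 CPM in PBS, 141 and 95.5 CPM in C40, and 231 and 195 CPM in I60. It fell 3.06-fold in C40 (0.00298) and 1.67-fold in I60 (0.0476), the I60 call being lost without any of the PBS or I60 replicates (0.118 to 0.255), by edgeR (0.0549) and with no filter (0.0825). *Fam83h*, a protein that organises keratins, fell 2.25-fold in C40 (0.00595), lost without PBS replicate 1 or 2 (0.0516 to 0.0603). It fell 1.79-fold in I60 (0.0174), but not once I60 replicate 2 or either PBS library was dropped (0.0965 to 0.123). Neither *Ppl* nor *Perp* passed between I60 and C40 (0.174 and 0.0599), though both did without C40 replicate 1 (0.000299 and 0.00775), and *Perp* did by DESeq2 (0.0119).

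The keratins, the filaments that desmosomes hold, did not move together. Of 9 keratin genes, 6 were tested. In C40, 3 fell (*Krt7*, *Krt14* and *Krt6a*; list median -1.03) and 0 rose. In I60, the same 3 fell and *Krt15* was called higher, with a list median of -1.68, or -2.91 with *Krt6a* at its bound. *Krt7*, a keratin of simple glandular epithelium, had 3115 and 3024 CPM in PBS, 791.6 and 862.9 CPM in C40, and 3.28 and 3.04 CPM in I60. It fell 3.71-fold in C40 and 839-fold in I60 (limma adjusted p = 0.000305 and 6.38e-07). *Krt14*, a keratin of basal cells, had 1426 and 692 CPM in PBS, 276 and 93.3 CPM in C40, and 23.8 and 13.3 CPM in I60. It fell 6.18-fold in C40 (limma adjusted p = 0.0184), lost without PBS replicate 1 (0.134 to 0.154) and with no filter (0.0548), and 54.2-fold in I60 (0.000428). *Krt6a* had 13.3 and 1.29 CPM in PBS and 1 read in C40. It had 0 reads in I60 and 840 in PBS, at least 257-fold lower if 3 reads over the group are taken as the floor, or at least 46.5-fold without PBS replicate 1, and its calls were lost without I60 replicate 1 or 2 (0.0742 to 0.129) and with no filter (0.0618 and 0.0767). *Krt6a* reached the filter of 1 CPM through the PBS libraries alone and *Krt15* through the I60 libraries alone. *Krt15* was low throughout (1.48 and 1.46 CPM in I60, against 0.298 and 0.0996 CPM in PBS), and its call was lost without PBS replicate 1 or 2 (0.0723 to 0.148). *Krt8* (adjusted p = 0.842 in C40 and 0.187 in I60) and *Krt18* (0.527 and 0.855) did not pass.

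Of 3 armadillo relatives of plakoglobin that were tested, 0 were called in C40 (median -0.22; 0 at an unadjusted p below 0.05 and 0 by edgeR or DESeq2; *Ctnnb1* passed without C40 replicate 1, 0.0484) and 1 fell in I60 (median -0.87). *Ctnnb1* (beta-catenin) had 1161 and 1058 CPM in PBS, 1228 and 734 CPM in C40, and 535 and 598 CPM in I60, a fall of 1.96-fold in I60 (limma adjusted p = 0.0301). The call was lost without any of the PBS or I60 replicates (0.106 to 0.184) and with no filter (0.074). *Arvcf*, another relative of p120 catenin, had 27.7 and 33.4 CPM in PBS, 20.6 and 29.7 CPM in C40, and 14.4 and 18.8 CPM in I60. It missed the threshold in I60 (log2 fold change -0.87, 0.0507) but passed as lower with a pseudocount of 0.1 CPM (0.0495), with TMM scaling (0.0435), by edgeR (0.0492), by DESeq2 (0.0128), with I60 and PBS fitted alone (0.0192) and without C40 replicate 1 or 2 (0.0184 and 0.019). *Ctnnd1* (p120 catenin) did not pass in C40 (0.691) or I60 (0.776).

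Hemidesmosomes, which tie keratins to the basement membrane instead of to a neighbouring cell, did not move as 1 group. Of 6 genes, 1 fell and 1 rose in C40 (median 0.04), and 2 fell in I60 (median -0.02). *Itgb4* (integrin beta 4) had 471 and 508 CPM in PBS, 196 and 191 CPM in C40, and 32.3 and 35.6 CPM in I60, falls of 2.52-fold and 14.2-fold (limma adjusted p = 0.00128 and 1.04e-05). *Itga6*, its alpha partner, fell 1.94-fold in I60 (0.0219), but not once PBS replicate 1 or either I60 library was dropped (0.11 to 0.152). *Cd151*, a tetraspanin, rose 1.49-fold in C40 (0.032), a call that did not survive dropping C40 replicate 2 or either library of PBS or I60 (0.0647 to 0.224), by edgeR (0.0517) and with the C40 and PBS libraries fitted alone (0.0676). *Plec* (plectin) did not pass in C40 (0.264) or I60 (0.0886), but passed as higher in C40 without C40 replicate 2 (0.011) and in I60 by DESeq2 (0.0309), with I60 and PBS fitted alone (0.00583) and without C40 replicate 1 or 2 (0.00564 and 0.0056).

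Most tested transcription factors tied to the epithelial state were lower. Of 8 genes, 6 were tested, of which 4 fell in C40 (median -1.94) and 5 fell in I60 (median -3.20), and 0 rose. *Trp63* and *Grhl3* did not reach the filter. *Trp63* had 0.333 and 0.0498 CPM in PBS, and more in I60 (0.693 and 0.866 CPM). *Grhl3* had 1.26 and 0.996 CPM in PBS, and less in C40 (0.166 and 0.0184 CPM) and I60 (0.412 and 0.0737 CPM). *Grhl2*, a grainyhead factor that maintains epithelial junction genes, had 101 and 120 CPM in PBS, 14.2 and 15.5 CPM in C40, and 0.562 and 0.645 CPM in I60 (limma adjusted p = 0.00031 and 6.21e-06). *Ovol1* had 0 reads in I60 and 2883 in PBS, at least 881-fold lower, and fell 4.02-fold in C40 (0.0032). *Grhl1*, which can activate desmoglein genes of skin, fell 3.67-fold in C40 (0.00658), lost without PBS replicate 1 (0.0605 to 0.0741), and 8.67-fold in I60 (0.000464). *Ovol2* fell 4.14-fold in C40 (0.00117) and had 1 read in I60, where PBS cells held 486 times the level (95% interval 86.9 to 19240), and reached the filter of 1 CPM through the PBS libraries alone. *Klf4* fell 2.31-fold in I60 (0.0303), but not once I60 replicate 1 or either PBS library was dropped (0.0787 to 0.199) and with no filter (0.0646).

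Repressors of epithelial junction genes were higher: of 5, all 5 rose in C40 (median 2.18, the value of *Snai2*) and 4 rose in I60 (median 2.37). Of all genes tested, 11.2% were called higher in C40 and 13.9% in I60. *Zeb2* had 2.56 and 1.28 CPM in PBS, 23.9 and 48.6 CPM in C40, and 20.3 and 37.7 CPM in I60, rises of 14.9-fold and 12.1-fold (limma adjusted p = 0.00162 and 0.00153). *Twist1* rose 3.24-fold in C40 (0.00513; 0.0567 without PBS replicate 1 with the genes tested held fixed) and 5.17-fold in I60 (0.000796). *Zeb1* rose in both (0.00226 and 0.00203). *Snai1* rose 2.36-fold in C40 (0.0101; 0.0511 to 0.0958 when either PBS library was dropped) and 1.83-fold in I60 (0.0303), lost without any of the PBS or I60 replicates (0.0933 to 0.191). *Snai2* rose in C40 (0.0228), lost without any of the PBS or I60 replicates (0.055 to 0.119), with no filter (0.0541) and with the C40 and PBS libraries fitted alone (0.0532), and did not pass in I60 (0.741). It reached the filter of 1 CPM through the C40 libraries alone. Whether these factors acted on the desmosome genes was not tested.

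Of 7 regulators of desmosome turnover, which include the proteases that can shed desmoglein 2, 0 were called in C40 (median -0.27; 3 at an unadjusted p below 0.05, as 35.4% of all genes were, 1 by edgeR and 3 by DESeq2). In I60, 1 fell (median -0.30). This was *Adam10*, a membrane protease, with 216 and 147 CPM in PBS, 111 and 86.8 CPM in C40, and 68.2 and 87.6 CPM in I60. It was 2.29-fold lower in I60 (limma adjusted p = 0.012), though not once the first replicate of PBS or of I60 was dropped (0.094 to 0.0992), and it missed the threshold in C40 (0.0512), where it passed with TMM scaling (0.042), by edgeR (0.0402), by DESeq2 (0.00796) and without C40 replicate 1 (0.0254).

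**Figure D4:**
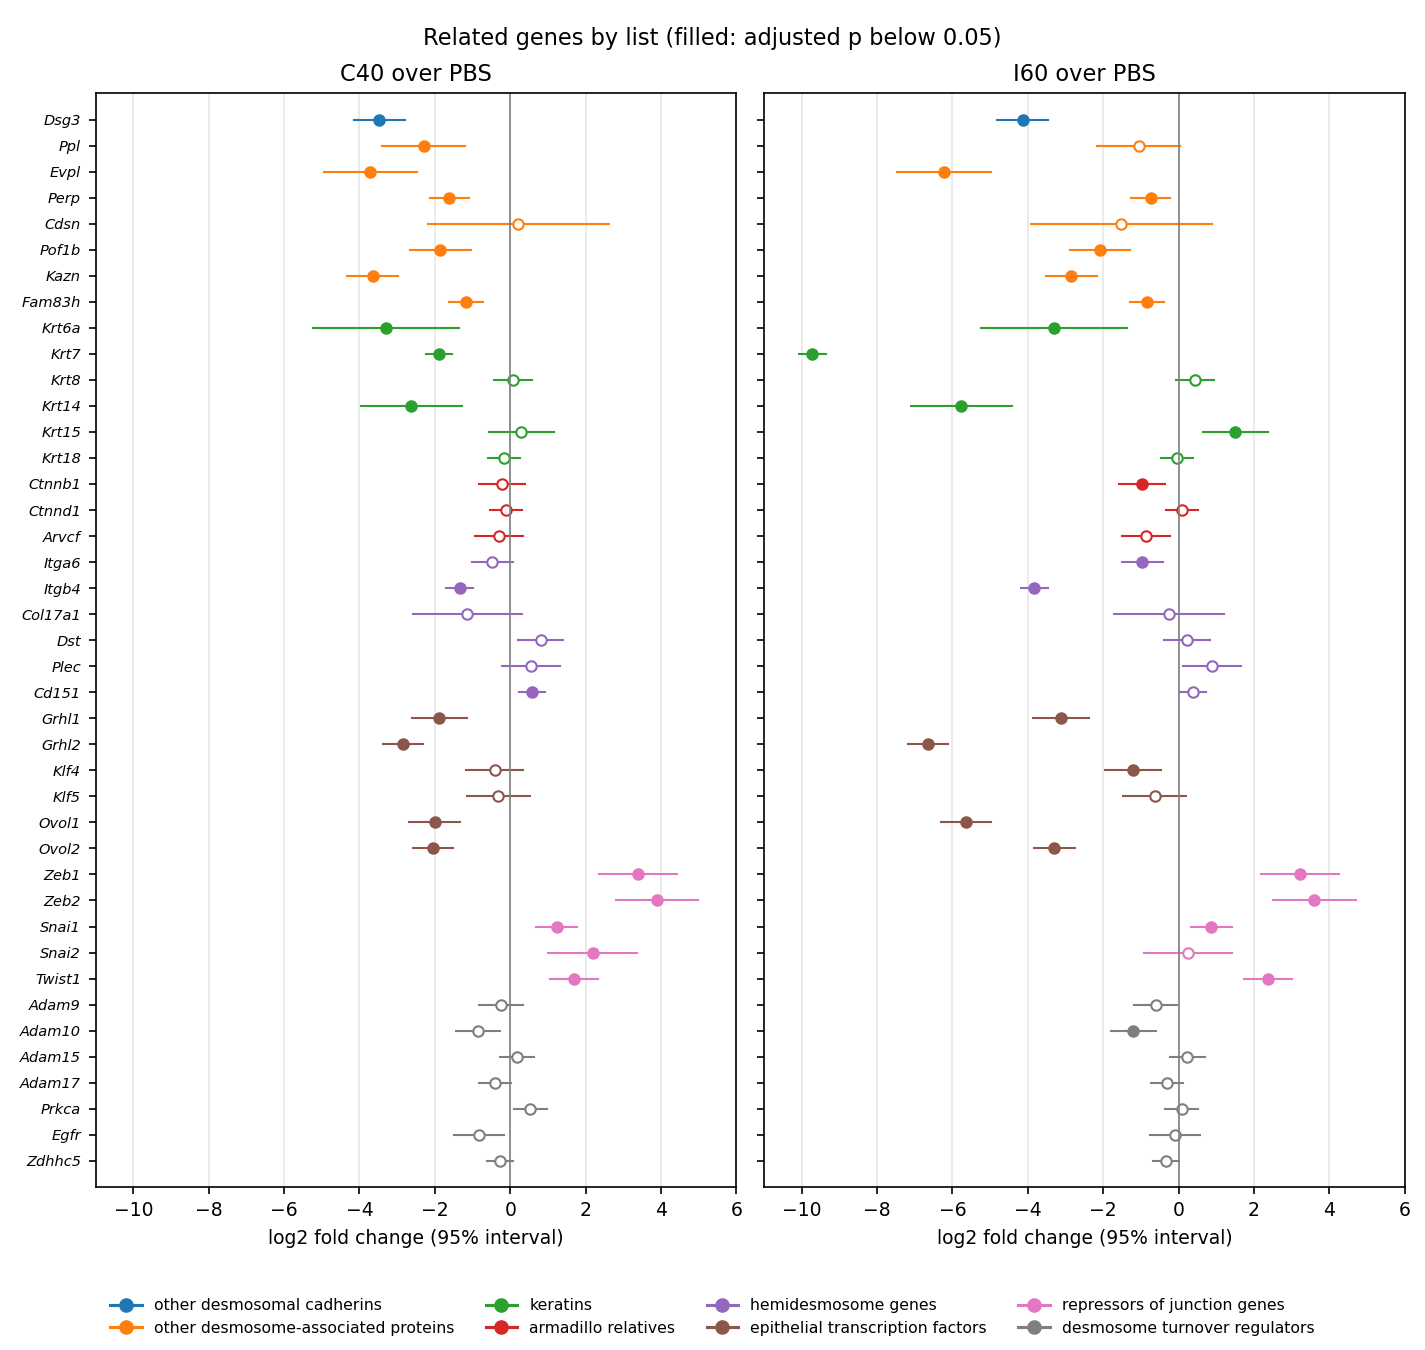
Log2 fold changes with limma's 95% intervals of the 41 tested related genes, for C40 over PBS (left) and I60 over PBS (right), coloured by list (filled points have an adjusted p below 0.05). Most desmosome-associated genes and epithelial transcription factors lie left of 0 and the repressors right of 0.

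Genes whose levels followed those of a desmosome gene most closely were found by the root mean square difference over the 6 libraries, on log2(CPM + 0.5) set to 0 at the PBS mean, among 10237 genes with at least 5 CPM in a group. For *Dsp* they were *Shroom3* (difference 0.24), *Smtnl2* (0.29) and *Prxl2a* (0.29). *Shroom3*, an actin regulator of epithelial sheets, had mean levels of 62.2 CPM in PBS, 13.1 CPM in C40 and 44.9 CPM in I60. For *Pkp1* they were *Rnf113a2* (0.15), *S100a16* (0.18) and the hemidesmosome gene *Itgb4* (0.23). For *Pkp2* they were *Acp5* (0.13), *Rxylt1* (0.15) and *Katna1* (0.17). For *Dsg2* they were *Artn* (0.22), *Tgm1* (0.39) and *Sfrp1* (0.46), and for *Dsc2* they were *Ano9* (0.17), *Slc35e3* (0.29) and *Arhgap40* (0.31). Those of *Jup* were *Cep19*, *C3* and *Kctd7* (0.09 to 0.12), of *Pkp3* *Tcp11l1*, *Fv1* and *Nt5c2* (0.07 to 0.13), and of *Pkp4* *Tsnax*, *Grb2* and *Cep170b* (0.03 to 0.05).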

How the data were processed

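The authors deposited CPM values (reads of a gene scaled to the library's total of assigned reads) for 6 libraries of total RNA, 1 row per Entrez gene ID. STAR and mm10 are named per the submitters' processing notes; the program used for counting, its annotation and its strand option are not given in sources used here. The labels' protocols describe 2 differing kits for rRNA depletion and a stranded library kit. Of 24454 IDs, 24374 were named from RefSeq and 7 from GENCODE alone. Every CPM value (100%) was a whole multiple of 1 read within 0.01, which gave back reads (48113692 to 60260520 per library).

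The 11524 genes reaching 1 CPM in 2 or more libraries were analysed with limma 3.58.1 (R 4.3.3) on log2(CPM + 0.5), all 6 libraries in 1 model, two-sided, with Benjamini-Hochberg adjustment and a threshold of 0.05. Fold changes on this scale understate the change of low genes. The fit was tested on simulated data in which 11324 of 11524 genes were unchanged. It called 0% of 1.5-fold changes, 4.48% to 8.96% of 2-fold changes and 68.2% to 81.8% of 4-fold changes, depending on the comparison. In the data 9.23% to 27.1% of genes were called, a larger part than was changed in the simulation. The adjustment was therefore stricter in the simulation, and these shares may be too low for the data. A gene that did not pass may still have changed. Alternatives were other pseudocounts, filters and scaling, edgeR 4.0.16 and DESeq2 1.42.0 on the recovered reads, a replicate block, 2 groups alone and leaving out each library. Ratios for genes with few reads have exact 95% intervals, and floors are 3 reads over a group; both cover counting error only. The desmosome genes and lists were chosen with earlier results of these data known. Named genes were all 8 desmosome genes, up to 4 called genes per list and comparison with the largest change, any gene behind a count of 5 or fewer, the 3 genes nearest in pattern, and genes within 250 kb. *Arvcf*, *Ctnnd1*, *Grhl3*, *Krt8*, *Krt18*, *Plec* and *Trp63* were named after their values were seen.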

Additional observations from a re-analysis of the deposited data

Results flagged for a closer look

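The effects of the 2 lines against PBS differed for 4 desmosome genes, by limma's test of I60 over C40. Of all genes tested, 9.23% were called in that comparison. The calls of *Dsp* and *Pkp1* held under each of 17 alternatives, while those of *Pkp2* and *Dsc2* were lost under some. *Dsp* was higher in I60 than in C40 by 2.17 on the log2 scale (adjusted p = 0.000992), with 582 and 560 CPM in I60, against 151 and 106 CPM in C40. *Pkp2* was higher by 1.06 (adjusted p = 0.0172), higher in both I60 libraries than in either C40 library. *Pkp1* had a log2 difference of -2.16 (adjusted p = 0.000807), with 21.7 and 22.2 CPM in I60, against 99.6 and 101 CPM in C40. *Dsc2* had a log2 difference of -1.22 (adjusted p = 0.0192), which rests on 1 read in I60 and 71 reads in C40.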

How the results depend on the processing

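No called fold change of a desmosome gene or related gene reversed (0) under any alternative run, but some uncalled ones changed sign when a library was left out. Among the desmosome genes these were the log2 differences of I60 over C40 of *Jup* -0.62 to 0.35, *Pkp3* -0.27 to 0.035 and *Pkp4* -0.27 to 0.022. Among related genes the ranges were *Cdsn* -1.33 to 1.76, *Krt8* -0.20 to 0.34, *Krt15* -0.22 to 0.80, *Klf5* -0.86 to 0.24, *Ctnnb1* -0.59 to 0.15 and *Ctnnd1* -0.32 to 0.090 for C40 over PBS (*Cdsn* -0.72 without PBS replicate 2). They were *Col17a1* -1.28 to 0.76, *Krt18* -0.20 to 0.10, *Prkca* -0.091 to 0.25, *Egfr* -0.22 to 0.033 and *Dst* -0.051 to 0.49 for I60 over PBS. They were *Ctnnd1* -0.011 to 0.40, *Plec* -0.18 to 0.83, *Klf5* -0.87 to 0.22, *Zeb2* -0.80 to 0.21, *Adam15* -0.13 to 0.23, *Zeb1* -0.39 to 0.045, *Adam17* -0.039 to 0.23 and *Zdhhc5* -0.11 to 0.00094 for I60 over C40. Against the full fit, desmosome genes called lower in I60 than in C40 numbered 1 instead of 2 with a pseudocount of 1 CPM and with I60 and C40 fitted alone, and 1 instead of 0 was called higher in I60 than in PBS with those groups alone. DESeq2 called 13 instead of 7 related genes and 1669 instead of 1064 of all genes between I60 and C40; the cause was not tested. Leaving out 1 library gave 3 to 6 desmosome genes called lower in C40 (5 in full) and 2 to 6 in I60 (6 in full), 0 to 0 higher in C40 and 0 to 1 higher in I60, and 1 to 2 lower and 1 to 2 higher in I60 than in C40. Related genes called ranged from 10 to 23 in C40, 11 to 27 in I60 and 4 to 15 between the lines. All genes called ranged from 829 to 3481 in C40 (2333 in full), 1368 to 4227 in I60 (3122 in full) and 336 to 1771 between the lines. Where a group is left with 1 library, it is assumed to vary like the others. Holding the tested genes fixed without a PBS replicate was chosen after seeing the data; *Dsg2* and *Dsc2* then stayed called against PBS, 1 instead of 2 desmosome genes was called higher in I60 than in C40, and 13 (C40) and 15 (I60) related genes were called without PBS replicate 1. All genes called were then 974 and 1152 in C40, 1511 and 1751 in I60, and 688 and 692 between the lines, without PBS replicate 1 and 2 in turn. Few reads limit *Dsg2* and *Dsc2* in I60.

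Same-numbered libraries deviated together with correlations of 0.154 (C40 and PBS), 0.105 (I60 and PBS) and 0.438 (I60 and C40), but each comparison has only 2 pairs and the labels do not say what a number stands for. With the replicate block, desmosome genes called stayed at 5 lower in C40, 6 lower in I60, and 2 lower and 2 higher between the lines, while all genes called were 2853, 3494 and 1253. Among related genes, the block also called *Adam10* lower and *Dst* higher in C40 (0.0411 and 0.0308), *Arvcf* lower and *Plec* higher in I60 (0.0207 and 0.0362), and *Perp* higher and *Snai2* lower in I60 than in C40 (0.0178 and 0.0322).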

Other observations

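Genes within 250 kb of a desmosome gene were listed as well. Around *Dsp*, 5 neighbours were tested and 0 were called in C40 or in I60. Of all genes tested, 20.2% were called in C40 and 27.1% in I60. Around *Pkp1*, *Lad1* (ladinin, a filament protein of basement membrane zones) had 566 and 590 CPM in PBS, 168 and 192 CPM in C40, and 74.9 and 50.15 CPM in I60 (C40 over PBS log2 -1.68, limma adjusted p = 0.00213; I60 over PBS log2 -3.23, adjusted p = 7.14e-05). At 10701 bases from *Pkp3*, *Ano9* had 13.7 and 13.5 CPM in PBS, 0.644 and 0.607 CPM in C40, and 0 and 0.0368 CPM in I60 (limma adjusted p = 0.000138 and 1.73e-05). *Ano9* reached the filter of 1 CPM through the PBS libraries alone, so it could only be tested because it was high there. Around *Pkp3*, 21 neighbours were tested, of which 4 were lower in C40, and 6 were lower and 2 higher in I60. Around *Jup*, 13 were tested, with 4 lower and 1 higher in C40, and 5 lower and 2 higher in I60. The 2 higher ones, *Krt13* and *Krt15*, reached the filter of 1 CPM through the I60 libraries alone. For *Pkp1*, 7 were tested, with 1 lower and 1 higher in C40, and 2 lower and 1 higher in I60. For *Pkp2*, 4 were tested, with 1 lower in C40 and 2 lower in I60. *Fgd4*, counted in both lines, reached the filter of 1 CPM through the PBS libraries alone. For *Dsg2*, 2 were tested, with 1 lower in C40 and 2 lower in I60, *Dsg3* among them. For *Dsc2* and *Pkp4*, 0 were tested.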
